A study of Mus musculus with 2 samples.

Results

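The Sin3, NCoR and CoREST corepressors are protein complexes that carry histone deacetylases to genes. Described here are 9 of their core genes, out of 21360 genes named on the arrays: Sin3a, Sin3b, Suds3, Sap18 and Sap30 of the Sin3 complex, Ncor1 and Tbl1xr1 of the NCoR complex, and Rcor1 and Rcor3 of the CoREST complex. The 9 genes were chosen by name from measured values, with their levels and differences on these same arrays known, so the values below describe them and support no test. Every non-control probe whose transcript identifier led to 1 of these symbols was taken, which gave 14 probes. The cells were LSK cells, the bone marrow fraction that lacks lineage markers and carries c-kit and Sca-1, sorted from C57BL/6J mice. The 1 control array held RNA of nondiabetic mice, and the other 1 held RNA of mice made diabetic with streptozotocin (STZ), a compound toxic to the β-cells of the pancreas. In the methods of the study, STZ was injected into a vein and the controls received citrate buffer alone. Each array was hybridised with material from 3 mice, amplified from 8.3 ng of RNA. The labels name all mice as female, whereas the study names male mice in its results, in a figure legend and in its reporting summary. Age and duration of diabetes for these arrays were not given in the sources used here.

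Histone deacetylases remove acetyl groups from histone tails, and most class I deacetylases work inside larger complexes that bind no DNA sequence by themselves. Repressors such as MXD proteins, unliganded nuclear receptors, REST and GFI1 bring these complexes to their genes. In blood stem and progenitor cells, corepressors are known partners of the factors that hold back differentiation genes. The Sin3 and CoREST complexes contain HDAC1 and HDAC2, and the NCoR complex contains HDAC3.

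Each condition had 1 array, so no difference between them could be set against a spread between mice, and every ratio is the value of the diabetic array over that of the nondiabetic array. The level of a probe is its background-subtracted processed intensity in arbitrary units, given with the error that the scanner software attached to it. Ratios are on the log2 scale after each array was scaled to its 75th percentile (168 and 182 for the nondiabetic and the diabetic array), with a standard error (SE) propagated from the software errors. That SE covers the reading of a spot and leaves out mice, sorting and amplification. Between spots of the same probe, for probes printed at least 5 times, the log2 ratio had a median SD of 0.13. No spot was saturated, and the software called 62.7% (nondiabetic) and 63.9% (diabetic) of non-control spots well above background. Both arrays shared 1 slide and 1 scan. Levels of different probes are not compared.

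Markers of the gate were present. Of 10 genes of LSK cells, 9 (nondiabetic) and 10 (diabetic) were well above background, and their summed intensity was 18050 and 21395. Kit, which encodes c-kit, read 4635 and 4735, and Ly6a, which encodes Sca-1, read 475 and 701. Mecom was at least 2-fold lower by its brightest probe (log2 ratio -1.20) and gave -0.16 by its other one. Procr gave -0.59, and the median log2 ratio of the list was 0.22. Slamf1 was above background on the diabetic array alone and was at least 2.59-fold higher there. Genes of other cell types were also measured. Itgam, the Mac-1 integrin chain of myeloid cells, read 34686 and 35189, and the granulocyte and monocyte list, with 8 of 8 named genes above background on both arrays, summed to 43291 and 42331, most of it from that Itgam probe. The median log2 ratio of the list was -0.48, S100a8 was at least 2-fold lower (-1.48), and the other probes of Itgam gave -1.30 and -1.12. The erythroid list, with 6 of 6 above background on both, summed to 3319 and 7542, with Hba-a1 (log2 ratio 1.21) and Slc4a1 (1.98) at least 2-fold higher. Hbb-bt and Alas2 gave 0.75 and 0.35, whereas Klf1 and Epor gave -0.30 and -0.20. The B cell list, with 4 of 6 above background, summed to 217 and 301, with Ms4a1 and Ebf1 above background on neither array. Cd79a was at least 2-fold higher (log2 ratio 1.51), and Cd79b gave -0.39. The T and NK cell list, with 5 and 4 of 8, summed to 1664 and 1653. Cd3d and Cd3g were above background on the nondiabetic array alone, each at least 2.74-fold lower on the diabetic array. Klrb1c was above background on the diabetic array alone, at least 1.34-fold higher there. The megakaryocyte list, with 5 of 6, summed to 649 and 934, and Ppbp was on neither. Gp9 was at least 2-fold higher (log2 ratio 1.52), and Vwf gave -0.12. The stroma and endothelium list, with 3 of 7, summed to 1048 and 1822, and Col1a1, Col3a1 and Cdh5 were on neither. The difference in that sum came from Pecam1, which read 162 and 936 (log2 ratio 2.41), whereas Kdr read 844 and 848 and Cxcl12 was above background on the nondiabetic array alone. The part of these cell types in the results below was not tested. In RNA from a sorted pool, more cells of a type and more RNA per cell cannot be told apart.

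All 14 probes were well above background on both arrays, and none carried an outlier mark for the spot itself. By the brightest probe of each gene, 2 of 9 genes, Suds3 and Rcor1, were at least 2-fold higher on the diabetic array, beside 9.44% of the 13467 genes measured on both arrays. None was at least 2-fold lower, beside 8.44% of all genes. The other 7 genes lay within 2-fold, and 6 of the 9 log2 ratios were above 0 while those of Sin3b, Sap30 and Ncor1 were below 0. The median log2 ratio was 0.86 for the 9 genes and 0.01 for all genes measured. That 0.86 is the value of the brightest Tbl1xr1 probe, and the other probe of Tbl1xr1 gave -1.41. Over the 14 probes, 2 were at least 2-fold higher, beside 8.96% of the 32506 probes measured, and 1 was at least 2-fold lower, beside 9.12%. Counted by probe, 7 log2 ratios were above 0 and 7 below 0, with a median of 0.35 against -0.02 for all probes. The genes were chosen with these differences known, so nothing is read from these counts.

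**Figure D1:**
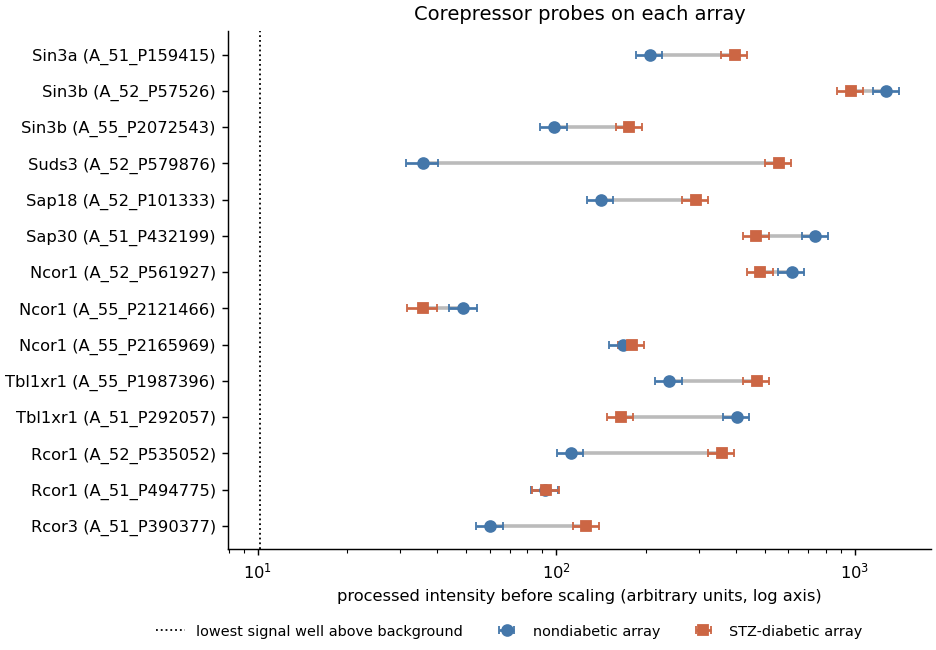
Processed intensity before scaling (arbitrary units, log axis) of each of the 14 corepressor probes on the nondiabetic array (circles) and the STZ-diabetic array (squares), with the software error as bars and the lowest signal well above background as a dotted line. All 28 points lie to the right of the dotted line, and the widest gap between the arrays is that of the Suds3 probe, from 35.8 to 557.

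The promoters of 3 genes are shown because Suds3 and Rcor1 were the members past 2-fold and Sap30 had the lowest ratio by brightest probe. Each is the 250 bases before the annotated start, from RefSeq on build GRCm38.p6, written 5′ to 3′ on the strand of the gene. Capitals mark matches, on either strand, to any of 4 short motifs, and matches that touch run together. The first motif searched was the GC box, spelled GGGCGG. The next was the core of the sites that ETS-family factors bind, spelled CGGAAG. The next was the pentamer CCAAT of the box named after it. The last was the E-box of MYC, MAX and MXD proteins, spelled CACGTG. The Suds3 promoter lies on the minus strand at chr5:117115994-117116243, that of Rcor1 on the plus strand at chr12:111039117-111039366 and that of Sap30 on the minus strand at chr8:57487861-57488110.
Suds3: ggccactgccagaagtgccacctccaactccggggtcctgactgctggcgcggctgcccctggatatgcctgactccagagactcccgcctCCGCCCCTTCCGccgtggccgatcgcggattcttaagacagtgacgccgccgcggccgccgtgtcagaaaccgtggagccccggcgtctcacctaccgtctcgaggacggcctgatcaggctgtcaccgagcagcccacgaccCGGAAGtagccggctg
Rcor1: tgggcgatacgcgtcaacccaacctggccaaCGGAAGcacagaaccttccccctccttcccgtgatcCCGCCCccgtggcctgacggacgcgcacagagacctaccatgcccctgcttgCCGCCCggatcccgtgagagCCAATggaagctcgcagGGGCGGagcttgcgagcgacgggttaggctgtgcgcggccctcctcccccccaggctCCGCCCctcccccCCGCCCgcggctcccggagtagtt
Sap30: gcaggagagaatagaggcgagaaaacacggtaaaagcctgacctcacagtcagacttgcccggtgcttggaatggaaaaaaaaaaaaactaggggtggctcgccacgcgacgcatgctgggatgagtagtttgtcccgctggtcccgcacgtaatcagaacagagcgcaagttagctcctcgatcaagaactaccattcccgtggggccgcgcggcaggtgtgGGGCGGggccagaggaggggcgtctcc
The Suds3 window held 26 CpG dinucleotides, 1 GC box and 2 ETS cores. The Rcor1 window held 25 CpG dinucleotides, 5 GC boxes, 1 CCAAT box and 1 ETS core. The Sap30 window held 18 CpG dinucleotides and 1 GC box. Over the 11 promoters annotated for the 9 genes, the GC box was found in 9, the CCAAT box in 3, the ETS core in 3 and the E-box in 0. Among all 32851 promoters of the same length, the shares were 32.7% for the GC box, 33.8% for the CCAAT box, 13.6% for the ETS core and 6.02% for the E-box. The G and C content of the 11 promoters ran from 36.8% to 82.8%, and the median of all promoters was 52.4%. Their CpG dinucleotides ran from 2 to 39, and the median of all promoters was 6. A match of letters is no evidence of a bound factor.

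The scaffolds of the Sin3 complex came first by role. SIN3A and SIN3B hold the deacetylases and the accessory subunits together and receive the DNA-binding repressors. The single Sin3a probe, A_51_P159415, read 206 ± 20.7 in nondiabetic and 398 ± 39.8 in diabetic mice, an order (nondiabetic first) kept below. The diabetic array was the higher one, with a log2 ratio of 0.83 ± 0.20 (SE), or 1.78-fold, and 3822 of the 32506 measured probes had a higher ratio. Sin3b had a pair of probes annotated to different transcripts of the gene. Its brighter probe, A_52_P57526, read 1277 ± 127.8 and 972 ± 97.2, a log2 ratio of -0.51 ± 0.20. The dimmer probe, A_55_P2072543, read 98.7 ± 10.2 and 176 ± 17.8, a log2 ratio of 0.72 ± 0.21. The Sin3b probes thus differed in direction and lay 1.23 apart on the log2 scale.

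Suds3 encodes a subunit that binds SIN3 and the deacetylases and is needed for full enzymatic activity of the complex. It had the highest ratio of the 9 genes. Its single probe, A_52_P579876, read 35.8 ± 4.41 in nondiabetic and 557 ± 55.7 in diabetic mice. The log2 ratio was 3.84 ± 0.23, or 14.3-fold, and 15 of 32506 probes had a higher one. Before background subtraction the spot medians were 68.5 and 551, over a local background of 31 on both arrays. The 62 other measured spots within 5 rows and columns had a median log2 ratio of -0.04, and 0 of them differed as far. The nondiabetic value was low on the scale of the array, where 10.2 was the lowest intensity well above background. Without a further Suds3 probe on the array, the difference rests on 1 spot in each condition.

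The SAP proteins are smaller Sin3 subunits. Sap18 encodes a subunit that is also found in RNA-splicing complexes at exon junctions. Its single probe, A_52_P101333, read 141 ± 14.3 and 294 ± 29.5, higher on the diabetic array with a log2 ratio of 0.94 ± 0.21, or 1.92-fold. The gene Sap18b has a similar name and its own probe, whose log2 ratio was 0.03, from 333 to 368, and cross-hybridization between these was not tested. Sap30 encodes a subunit that stabilises the Sin3-deacetylase contact. Its single probe, A_51_P432199, read 739 ± 73.9 and 468 ± 46.9, lower on the diabetic array with a log2 ratio of -0.78 ± 0.20, or 1.71-fold lower. Sap30l, the related gene, differed the other way, with a log2 ratio of 0.60.

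Ncor1 encodes the large NCoR scaffold that docks on unliganded nuclear receptors and activates HDAC3. It had 3 probes, annotated to different transcripts. The brightest, A_52_P561927, read 617 ± 61.7 and 483 ± 48.4, a log2 ratio of -0.47 ± 0.20. Its 67 neighbouring spots had a median log2 ratio of -0.32, the lowest of any member, and 29 of them differed as far. A_55_P2121466 read 48.9 ± 5.33 and 35.8 ± 4.16, a log2 ratio of -0.57 ± 0.23. A_55_P2165969 read 167.9 ± 16.9 and 179 ± 18.1, a log2 ratio of -0.02 ± 0.21, and the software marked the background of its spot on the nondiabetic array as an outlier. All 3 ratios were thus below 0 and within 2-fold, and the probe nearest 0 did not exceed its SE.

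Tbl1xr1 encodes a WD40-repeat subunit that exchanges corepressors for coactivators at nuclear receptors. Both of its probes are annotated to the same transcript, and they pointed opposite ways. The brighter probe by mean log2 signal, A_55_P1987396, read 239 ± 24.0 and 471 ± 47.2, a log2 ratio of 0.86 ± 0.20, or 1.82-fold higher on the diabetic array. The other, A_51_P292057, read 404 ± 40.5 and 165 ± 16.6, a log2 ratio of -1.41 ± 0.21, or 2.66-fold lower. With the probes 2.27 apart on the log2 scale, no direction is given for Tbl1xr1.

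Rcor1 and Rcor3 encode CoREST scaffolds, which link HDAC1 and HDAC2 to the histone demethylase LSD1. The brighter of the Rcor1 probes, A_52_P535052, read 112 ± 11.4 and 358 ± 35.9, a log2 ratio of 1.56 ± 0.21, or 2.95-fold higher on the diabetic array. The dimmer probe, A_51_P494775, annotated to the same transcript, read 91.9 ± 9.46 and 92.5 ± 9.50, a log2 ratio of -0.11 ± 0.21. The higher Rcor1 value was therefore read by 1 probe of the pair, and they lay 1.67 apart. The single Rcor3 probe, A_51_P390377, read 60.2 ± 6.39 and 126 ± 12.8, higher on the diabetic array with a log2 ratio of 0.95 ± 0.21, or 1.94-fold. Rcor3 and Sap18 were the genes just inside the 2-fold limit. The next values outside it were the Tbl1xr1 probe at -1.41 and the Rcor1 probe at 1.56.

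**Figure D2:**
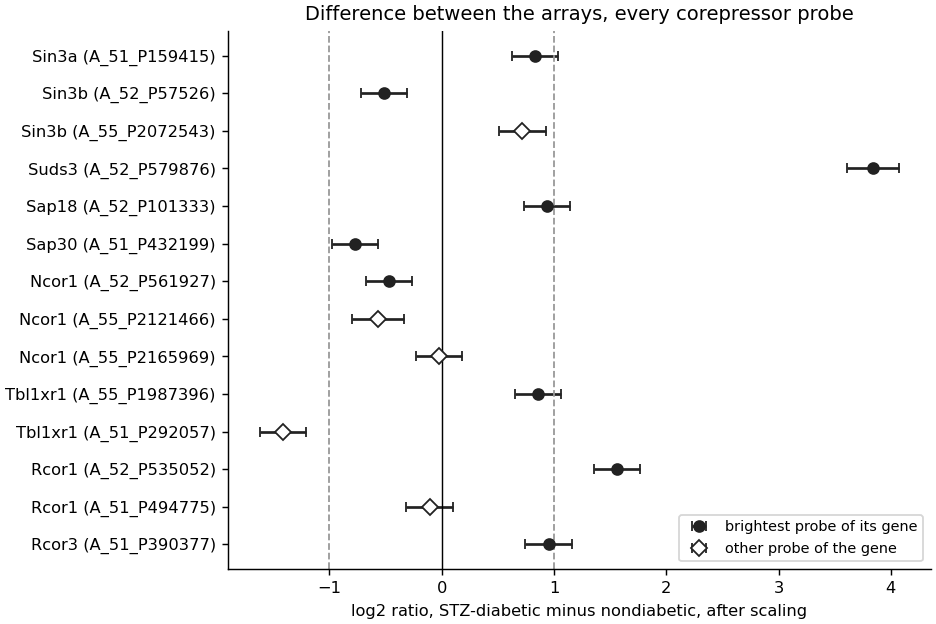
Log2 ratio (STZ-diabetic minus nondiabetic, after scaling to the 75th percentile) of every corepressor probe, with the software SE as bars; filled points are the brightest probe of each gene and open points its other probes. Suds3 stands at 3.84, and the probes of Sin3b, Tbl1xr1 and Rcor1 lie on both sides of 0.

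Disagreement between probes of a gene was frequent on these arrays. Of the 4 corepressor genes with several probes, 3 had probes more than 2-fold apart, beside 35.4% of the 3245 genes with several measured probes. In 3 of the 4 the probes were also of opposite sign, beside 48.9% of those genes. The SE of the 14 probes ran from 0.20 to 0.23, and the Ncor1 probe at -0.02 and the Rcor1 probe at -0.11 did not exceed theirs. The share of all probes that exceed their SE was not counted, so nothing is read from the others. The medians of the spots around the probes ran from -0.32 to 0.08, and a local gradient on the slide was not tested beyond these values.

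**Figure D3:**
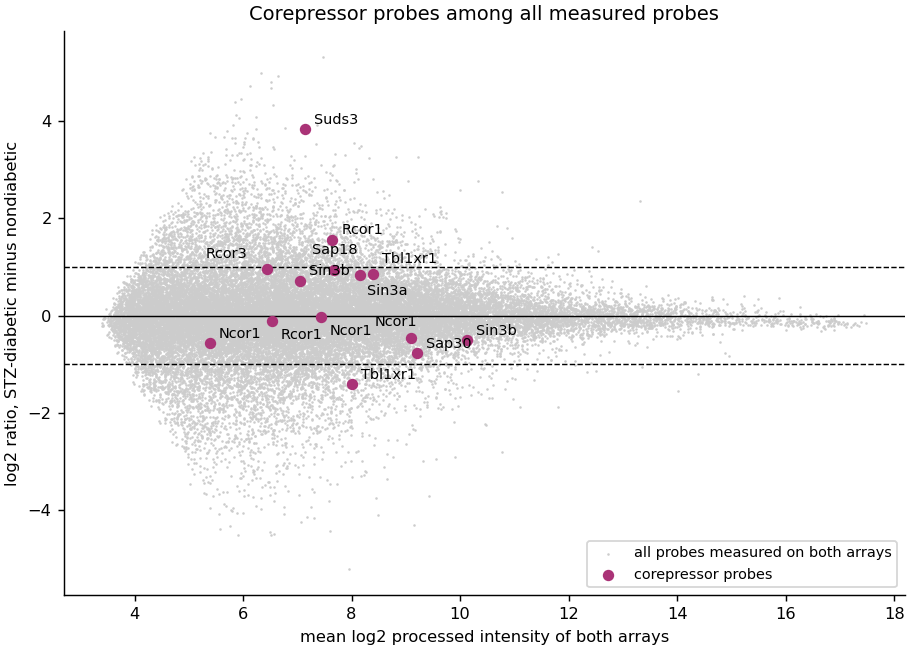
Log2 ratio against the mean log2 processed intensity of both arrays for all 32506 probes measured on both (grey) and the 14 corepressor probes (coloured, named). Past 2-fold in either direction lay 18.1% of all these probes, and the Suds3 probe, at 3.84, lies above all but 15 of them.

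Of the remaining subunits of the 3 complexes, 32 genes are reported here, and 30 of them were measured on both arrays. Of these, 4 were at least 2-fold higher by the brightest probe (Brms1l, Gps2, Hdac3 and Kdm4a), beside the 9.44% of all genes. The median log2 ratio was 0.33 against 0.01 for all genes. Phf12 gave 0.51 by its brightest probe and 1.16 by its other one. Phf21a gave 0.38 by its brightest probe and -0.13 and 1.74 by its others. In the Sin3 list of 22 genes, 21 were measured, 2 were higher and 0 lower, beside 9.44% and 8.44% of all genes, with a median of 0.27. Brms1l, a subunit related to the metastasis suppressor BRMS1, read 27.3 and 102, a log2 ratio of 1.79. Ing2 was above background on neither array. The deacetylases shared by the Sin3 and CoREST lists were both lower by their brightest probe and within 2-fold. Hdac1 read 1013 and 883, a log2 ratio of -0.32, and its other probes gave 0.34 and 0.42. Hdac2 read 197 and 111, a log2 ratio of -0.95.

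In the NCoR list, all 7 genes reported here were measured and 3 were at least 2-fold higher, beside the 9.44% of all genes given above. The median log2 ratio was 0.86, again the value of the brightest Tbl1xr1 probe. Hdac3, the catalytic subunit, read 97.8 and 247, a log2 ratio of 1.22. Gps2, a core subunit that also restrains inflammatory signalling, read 123 and 470, a log2 ratio of 1.82, and its other probe gave 0.73. Kdm4a, a histone lysine demethylase, read 1046 and 2329, a log2 ratio of 1.04. Tbl1x, the relative of Tbl1xr1, read 364 and 699, a log2 ratio of 0.83 and within 2-fold.

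In the CoREST list, 13 of 14 genes were measured, 1 (Rcor1) was higher and 0 lower, beside 9.44% and 8.44% of all genes. The median log2 ratio was 0.10. The other Rcor1 probe gave -0.11, and 0 genes of the list were higher with the mean over probes or the dimmest probe. Kdm1a, which encodes LSD1, read 427 and 627, a log2 ratio of 0.44. Rcor2, the remaining CoREST scaffold, read 343 and 282, a log2 ratio of -0.40. Hmg20b was well above background on the diabetic array alone, at 20.2, and was at least 1.82-fold higher there, a bound taken against the lowest intensity well above background.

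**Figure D4:**
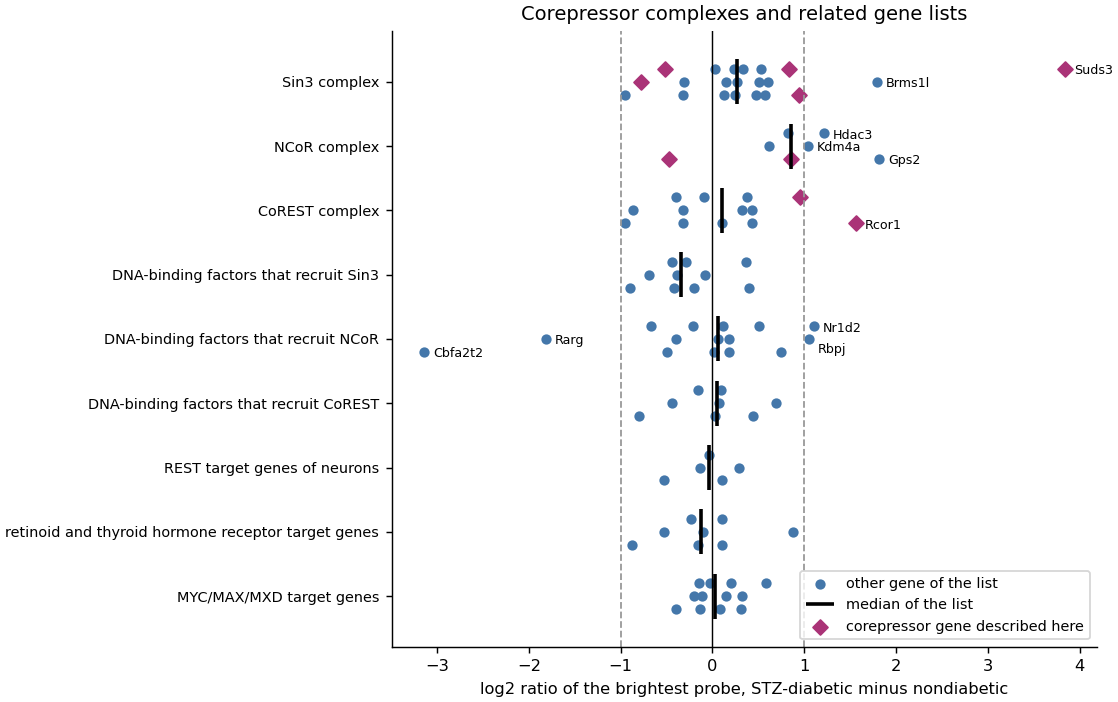
Log2 ratio (STZ-diabetic minus nondiabetic) of the brightest probe of each gene in the 3 complexes, the factors that recruit them and lists of their target genes, with the median of each list as a bar and the 9 corepressor genes as diamonds. The list medians run from -0.34 for the factors that recruit Sin3 to 0.86 for the NCoR complex.

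The factors that recruit the complexes to DNA showed both directions. Of 11 factors that bring Sin3, 10 were measured and 0 passed 2-fold by the brightest probe, with a median log2 ratio of -0.34. Mxd1 gave 0.37 by its brightest probe and 1.07 by its other one, and Rest, also on this list, is given below. Mxi1, an MXD-family repressor, read 79.6 on the nondiabetic array and was not well above background on the diabetic array, at 3.06, which gave at least 8.58-fold lower. Of 17 factors that bring NCoR, 15 were measured, with 2 higher, 2 lower and a median of 0.07. Nr1d2, a REV-ERB receptor of the circadian clock, read 25.0 and 58.4, a log2 ratio of 1.11. Rbpj, the DNA-binding partner of Notch, read 292 and 656, a log2 ratio of 1.05, and its other probe gave -0.37. Cbfa2t2, an ETO-family corepressor that reaches DNA through other factors, read 320 and 39.2, a log2 ratio of -3.14. Rarg, a retinoic acid receptor, read 67.2 and 20.8, a log2 ratio of -1.81. Of 11 factors that bring CoREST, 8 were measured and 0 passed 2-fold by the brightest probe, with a median of 0.05. Zeb2, a repressor of epithelial genes, gave 0.69 by its brightest probe and -1.47 by its other one. Rest, the repressor of neuronal genes, read 968 and 772, a log2 ratio of -0.44, and its other probe gave -1.99. Gfi1 and Gfi1b, which encode repressors of genes in blood progenitors, gave log2 ratios of -0.80 (746 and 464) and 0.09 (104 and 119).

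By the brightest probe of each gene, the target lists stayed within 2-fold. Of 12 neuronal genes repressed by REST, 5 were measured, with 0 past 2-fold and a median log2 ratio of -0.04, and 7 were above background on neither array. Of 10 target genes of retinoid and thyroid hormone receptors, 8 were measured, with 0 past 2-fold and a median of -0.13. Tgm2, a transglutaminase induced by retinoic acid, gave -0.53 by its brightest probe and -1.75 by its other one. All 12 target genes of MYC, MAX and MXD proteins were measured, with 0 past 2-fold, a median of 0.03 and a range from -0.39 to 0.58. For these lists and the recruiting factors, too, the shares over all genes were the 9.44% higher and 8.44% lower given above.

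**Figure D5:**
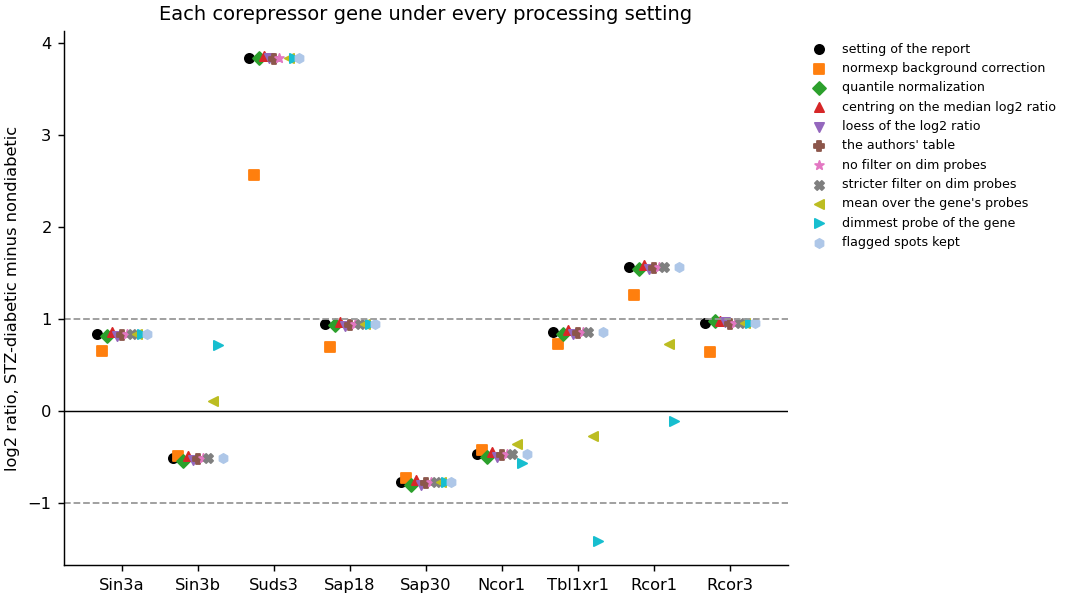
Log2 ratio (STZ-diabetic minus nondiabetic) of each of the 9 corepressor genes under the setting of the report (black) and each alternative processing setting. Suds3 runs from 2.57 to 3.86, and Sin3b, Tbl1xr1 and Rcor1 fall on both sides of 0 depending on which probe stands for the gene.

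Under the alternative settings, Suds3 kept a log2 ratio between 2.57 and 3.86 wherever it had a value, and a stricter limit on dim probes removed it. The single-probe genes Sin3a, Sap18 and Rcor3 ranged from 0.65 to 0.86, from 0.70 to 0.96 and from 0.64 to 0.97. Sap30 ranged from -0.81 to -0.73 and Ncor1 from -0.57 to -0.35. The sign of Rcor1, Sin3b and Tbl1xr1 depended on the choice of probe.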

How the data were processed

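LSK cells were measured on 2 arrays, 1 nondiabetic and 1 STZ-diabetic. Per the file headers, Agilent Feature Extraction 11.5.1.1 made the deposited processed intensity, background-subtracted and not normalized between arrays. The authors' own table was that intensity times 1 constant for each array (log2 factors of 3.48 and 3.35) and served as an alternative. Here the deposited intensity was converted to log2 and the 75th percentile of each array subtracted. A total of 314 spots with an outlier mark for the spot itself was left out, and probes not well above background on both arrays got a bound or no ratio. Transcript identifiers were matched to RefSeq gene names (GRCm38.p6), which named 53.7% of non-control spots. The brightest probe by mean log2 signal stood for a gene.

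The 9 genes, the gene lists and the 2-fold limit were chosen with earlier results of these data known. The lists are those of the report, less 1 NCoR-list gene and 1 erythroid gene that are not reported here and enter none of the list counts or medians, and named genes are those past 2-fold plus fixed partners such as Hdac1 and Rest. Neighbouring spots and promoter motifs were added after the values were seen. No test was made, because each condition had 1 array, and the number of arrays limits the precision. Steps were tested on simulated data. Alternatives covered background correction, normalization, the filter on dim probes, the choice of probe and outlier marks. Python 3.11.15 (numpy 2.4.6, pandas 2.3.3) and R 4.3.3 (limma 3.58.1) were used.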

Additional observations from a re-analysis of the deposited data

How the results depend on the processing

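No paired analysis was possible because nondiabetic and diabetic mice had 1 array each, and for the same reason no array could be left out. Quantile normalization and loess left the sign of 9 of 9 corepressor genes as given, as did normexp background correction. Centring on the median and the authors' table shifted every ratio by the same amount, too small to turn any of these signs. Dropping the filter on dim probes or keeping marked spots could not change these genes. Their probes were all well above background and carried no mark for the spot itself. Spots with only a background mark, as at the Ncor1 probe A_55_P2165969, were kept under every setting, so the effect of that mark was not tested. Normexp, run on the spot median with an offset of 50 that draws dim probes toward 0, gave a median log2 ratio of 0.65 for the 9 genes and 2 other complex genes at least 2-fold higher in place of 4. It also brought Hdac3 to 0.75, Brms1l to 0.76, Nr1d2 to 0.26, Rbpj to 0.87 and Rarg to -0.82, all within 2-fold, and the genes at least 2-fold higher over the whole array from 1271 to 526 (lower, from 1137 to 436). Under the stricter filter on dim probes, 1 corepressor gene and 1 probe were at least 2-fold higher, because Suds3 was left out, as were Brms1l, Nr1d2, Rarg and Cbfa2t2, and 763 genes of the array were higher and 665 lower. With the mean over the probes of a gene, 1 corepressor gene was higher and the median was 0.73, with 7 of 9 signs kept. Over the whole array, 1206 genes were then higher and 1060 lower. With the dimmest probe, 1 corepressor gene was higher and 1, Tbl1xr1, lower, the median was 0.72 and 6 of 9 signs were kept. Over the whole array, that choice gave 1422 genes higher and 1286 lower. Under both the mean and the dimmest probe, Rest, on the lists that recruit Sin3 and CoREST, and Tgm2, a retinoid target, were at least 2-fold lower, and under the dimmest probe Zeb2 was also lower and Mxd1 higher. The dimmest probe turned Rcor1 to -0.11 and Rbpj to -0.37, and it brought Gps2 to 0.73 and Phf12 to 1.16. The cause of probe disagreement was not tested. Dim signal limits Suds3 and the Ncor1 probe A_55_P2121466, which reached 35.8 on 1 of the arrays and had no value under the stricter filter.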
